A study of Homo sapiens with 3 samples.

Results

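TARBP2 and 8 other genes that encode proteins with double-stranded RNA binding domains were followed on 3 Illumina BeadChip arrays of 293T cells, a human embryonic kidney line that carries the SV40 large T antigen. The 9 genes are TARBP2, PRKRA, EIF2AK2, ADAR, ADARB1, STAU1, STAU2, DHX9 and DGCR8, of 20046 genes named on the arrays. They were chosen for the domain, and every probe that the platform annotation assigns to one of them was taken, which gave 19 of 47323 probes. 1 array held cells transfected with the first siRNA against TARBP2 (siTARBP2-1), 1 held cells with the second (siTARBP2-2), and 1 held the control. The sample labels name a control siRNA (siControl), whereas the series text speaks of mock transfection. Culture medium with 10% serum and a lipid transfection reagent were common to all cells, and RNA was taken after 48 h. The series text calls the cells metastatic, a word that the sample labels do not use. Both siRNA arrays form the knockdown group of 2. Nothing in the labels shows separate cultures, so each test measures only the spread between these arrays, and the control has no spread of its own.

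A double-stranded RNA binding domain grips the A-form helix mainly through its sugar-phosphate backbone, with little regard for sequence. Proteins that carry it serve in unlike pathways. TARBP2 and PRKRA hold DICER1 while it cuts microRNA precursors, and DGCR8 guides DROSHA to primary microRNAs in the nucleus. EIF2AK2 (PKR) senses viral RNA and stops translation, ADAR and ADARB1 convert adenosine to inosine, STAU1 and STAU2 carry mRNA or mark it for decay, and DHX9 unwinds RNA. TARBP2 also restrains EIF2AK2 by direct binding, while PRKRA activates it.

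Mean raw signal over all probes was between 514.3 and 680.4, with the siRNA 1 array highest. Between 18449 and 19155 probes per array were above background, meaning a deposited detection p under 0.01. Raw signals were background corrected and brought to the same quantiles, and all differences are of normalized log2 signal, knockdown minus control. A probe was tested if it was above background on at least 1 array, which held for 20119 probes and for 18 of the 19. Of the 7 markers of 293T cells, 6 were above background on at least 1 array (VIM, KRT8, KRT18, CDH2, NEFM and NEFL) and PAX2 on none. The 6 had a median difference of 0.33 with siRNA 1 and 0.12 with siRNA 2. The neurofilament genes NEFM (0.82 and 0.16) and NEFL (0.52 and 0.075), KRT8 (0.21 and 0.24) and CDH2 (0.020 and 0.29) were above control with each. VIM (0.11 and -0.34) and KRT18 (0.46 and -0.45) split between the siRNAs, and KRT18 was not above background with siRNA 2. Of 6 markers of other cell types, PTPRC, CD3E, DES, PECAM1 and HBB were above background on no array, and ALB only on the control array, with raw signals of 73.6 and 75.7 in the knockdown, against 88.9 in the control. Their part in the differences was not tested. In bulk RNA, fewer cells that hold a transcript and less of it per cell cannot be told apart.

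TARBP2, the targeted gene, was far below control with both siRNAs and at both of its probes. Raw signal at ILMN_1729767 was 138.2 with siRNA 1 and 101.8 with siRNA 2, against 341.7 in the control. At ILMN_2310253 it was 126.8 and 93.7 with siRNA 1 and siRNA 2, against 232.4 in the control. The control lay above both knockdown arrays at each probe, and siRNA 2 gave the lower reading at each. TARBP2 stayed above background on both knockdown arrays, with detection p-values of 0.0013 to 0.0026. On the normalized log2 scale ILMN_1729767 stood at 6.27 and 6.09 in the knockdown, against 8.38 in the control. The lowest probe above background had 5.25 on the siRNA 1 array and 5.38 on the siRNA 2 array, so the remaining TARBP2 signal lay not far above the floor of detection.

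The normalized signal left at ILMN_1729767 was 23.0% of control with siRNA 1 and 20.4% with siRNA 2, and at ILMN_2310253 it was 32.2% and 27.7%. Without background correction or normalization the raw signals were 40.4% and 29.8% of control at ILMN_1729767, and 54.6% and 40.3% at ILMN_2310253. The mean difference at ILMN_1729767 was -2.21 ± 0.25 (moderated SE, n = 2 against 1), with a 95% interval of -2.80 to -1.61. At ILMN_2310253 it was -1.74 ± 0.25, with an interval of -2.35 to -1.14. The gap of 0.46 between these 2 probes was wider than in 92.3% of the 2910 genes with several probes above background on all arrays. The median gap there was 0.15. Those genes were not matched to TARBP2 for the size of the difference. Over all probes above background on every array the median size of the mean difference was 0.14. The 2 siRNAs differed by 0.18 at ILMN_1729767 and 0.22 at ILMN_2310253, siRNA 1 minus siRNA 2, beside a median size of 0.21 over all probes above background on every array.

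Among 20119 tested probes, ILMN_1729767 had the lowest mean difference and ILMN_2310253 the third lowest (rank 3). By single siRNA, ILMN_1729767 ranked 4 with siRNA 1 and 1 with siRNA 2, counted from the lowest. In the authors' deposited table of log fold changes the TARBP2 entries stood at -1.16 and -0.78, at ranks 1 and 7 from the lowest of 39747 accessions. These are smaller in size than -1.67 and -1.22, the differences of the authors' deposited intensities at the same probes. ILMN_1729767 also had the smallest unadjusted p of all tested probes (limma over all probes, 6.33e-05), yet after adjustment over all probes both TARBP2 probes missed the threshold (limma adjusted p = 0.99991). Across the 8 alternative settings the limma adjusted p of ILMN_1729767 ran from 0.0746, with equal array medians, to 0.99999.

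**Figure D1:**
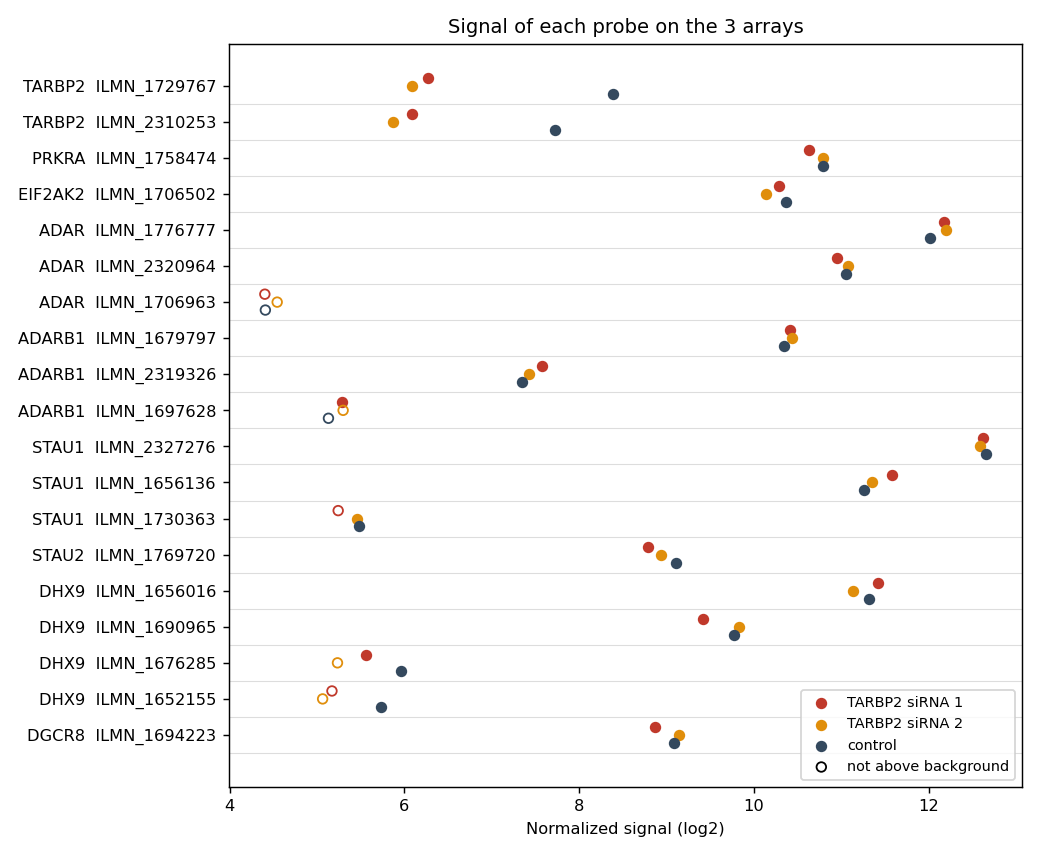
Normalized signal (log2, x axis) of each of the 19 probes on the siRNA 1, siRNA 2 and control arrays, with open circles for readings not above background. The control stands apart to the right at both TARBP2 probes (8.38 against 6.27 and 6.09 at ILMN_1729767), while the 3 arrays lie close together at most other probes.

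By the limma test 0 of the 18 tested probes passed, beside 0% of all tested probes (0 of 20119). At unadjusted p under 0.05 there were 400 probes over the whole array, 241 lower and 159 higher, fewer than the 1006 that uniform p-values would give. With 1 residual degree of freedom, the variance leaned on a prior worth 5.695. By size, both TARBP2 probes were lower by over 1.5-fold with siRNA 1, 2 of 18 beside 1.9% of all tested probes, and 0 of 18 were higher, beside 1.68%. With siRNA 2, 4 of 18 were lower, beside 5.88%, and 0 were higher, beside 4.97%. The 4 were both TARBP2 probes and 2 dim probes of DHX9. The DHX9 probes were not above background with siRNA 2. In the reported normalization they are only known to be at least 1.4955-fold (ILMN_1676285) and 1.28-fold (ILMN_1652155) lower, both short of the rule. With the authors' deposited values their siRNA 2 differences were smaller, at -0.34 and -0.30, so these bounds hold for the reported normalization alone. The share over all probes counts readings not above background in the same way.

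The other 8 genes lay near control. Their 12 probes above background on all 3 arrays had mean differences between -0.24 (STAU2) and 0.21 (STAU1), with a median of -0.046, beside 0.0036 over all probes of that kind. None of the 12 differed by 1.5-fold with either siRNA. Of all 17666 probes of that kind, 364 did with siRNA 1 and 1577 with siRNA 2, so this count does not set the 12 apart. Counting all 16 tested probes of these genes, both knockdown arrays were below control at 6, beside 29.1% of all tested probes. Both were above it at 5, beside 30.9%. Neither count stands far from its background share. The 6 include DHX9 ILMN_1652155, tested only through the control array, and the 5 include ADARB1 ILMN_1697628, tested only through siRNA 1. The filter favoured the direction of these probes. With equal array medians in place of equal quantiles, the median of all tested probes moved to 0.29 with siRNA 1 and -0.072 with siRNA 2, and 5 of the 16 means turned from negative to positive. Relative to the median of all probes, 0 of the 16 turned. The moderated SE was 0.24 to 0.28, and 15 of the 16 intervals held 0. Together the 16 intervals reached from -1.21 to 0.82, so a moderate difference in either direction is within the error of these arrays.

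**Figure D2:**
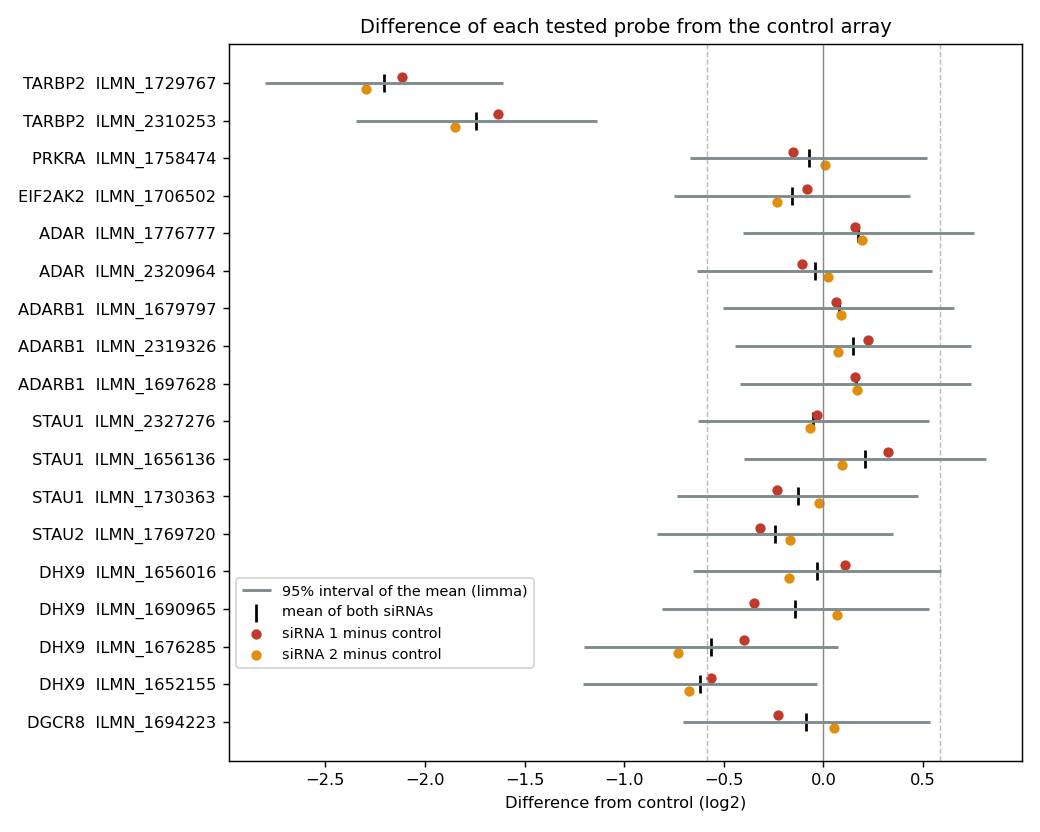
Difference from control (log2, x axis) of the 18 tested probes for siRNA 1 and siRNA 2, with the mean of both and its 95% interval from limma. Dashed lines mark 1.5-fold. Both TARBP2 intervals lie wholly below 0 (-2.80 to -1.61 at ILMN_1729767), and 15 of the 16 other intervals cross it.

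Among the microRNA partners, PRKRA, the paralog of TARBP2 that also binds DICER1, had 2040.2 and 1530.6 raw units with siRNA 1 and siRNA 2, against 1633.6 in the control. After normalization these became 10.63 and 10.79, against 10.79 in the control, so the siRNA 2 array equalled control and the siRNA 1 array lay slightly below it. The differences were -0.15 and 0.0063, with a mean of -0.074 (95% interval -0.67 to 0.52). Over both siRNAs PRKRA showed 94.99% of the control signal. DGCR8, the partner of DROSHA, had 636.4 and 515.1 raw units with siRNA 1 and siRNA 2, against 529.5 in the control. Its differences were -0.23 with siRNA 1 and 0.056 with siRNA 2, with a mean of -0.085 (interval -0.71 to 0.54). At both genes the control value fell between the 2 siRNA arrays.

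EIF2AK2, the kinase PKR that phosphorylates the translation factor eIF2 alpha on binding double-stranded RNA, had 1 probe. Raw signal was 1618.5 and 982.8 with siRNA 1 and siRNA 2, against 1228.2 in the control. The normalized values of 10.29 and 10.14 both lay under the control value of 10.37. With equal array medians EIF2AK2 was at 0.26 with siRNA 1, beside 0.29 for the median of all tested probes. The differences were -0.082 and -0.23, with a mean of -0.16 ± 0.25 (SE, n = 2 against 1; interval -0.75 to 0.44; limma adjusted p = 0.99991).

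EIF2AK2 is induced by interferon, and its promoter is shown because its letters place it beside the interferon-induced genes read on the same arrays. The RefSeq promoter window on GRCh38.p14, chr2:37156931-37157230 on the minus strand, spans the annotated gene start. Capitals mark the match to GAAA, any 2 bases and GAAA, the core of the interferon-stimulated response element, which begins 6 bases before the gene start.
EIF2AK2 promoter: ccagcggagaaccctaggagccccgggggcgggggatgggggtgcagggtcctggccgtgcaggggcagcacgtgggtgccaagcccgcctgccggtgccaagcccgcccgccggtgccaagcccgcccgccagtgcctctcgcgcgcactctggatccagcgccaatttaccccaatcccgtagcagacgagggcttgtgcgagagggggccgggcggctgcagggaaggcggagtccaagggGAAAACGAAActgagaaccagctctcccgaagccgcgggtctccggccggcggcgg

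The motif was searched on both strands. It was found in 3.57% of 35116 RefSeq promoter windows and in 4.38% of 27305 genes. Of the 9 genes, 8 matched a promoter window, and EIF2AK2 was the 1 that held the motif. Of 12 interferon-induced genes with a window 9 held it, and of the 9 that were also tested 6 did. The match nearest the gene start of each of these 6 is set beside that of EIF2AK2, 5′ to 3′ on the gene's strand, with the 10 motif letters in capitals. A match that reads TTTC first is the motif on the opposite strand.
EIF2AK2, chr2:37156977-37156986: tccaagggGAAAACGAAActgagaac
IFI44L, chr1:78620375-78620384: ctagtgagGAAAAAGAAAgttagtgg
IFI6, chr1:27672276-27672285: agagtgcaGAAATAGAAActccgaca
ISG15, chr1:1013390-1013399: gggaaaggGAAACCGAAActgaagcc
IFI44, chr1:78649771-78649780: acactgagTTTCAGTTTCctttctct
IFIT1, chr10:89392520-89392529: ctttccccTTTCGGTTTCcctaggtt
IFIT3, chr10:89332478-89332487: tccatcagTTTCACTTTCctttcccc

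A match is a description of letters in the window. The signals of these genes did not run alike. EIF2AK2 was at -0.082 and -0.23 with siRNA 1 and siRNA 2, while IFIT1, which binds foreign RNA ends, was at 0.20 and 0.59. IFI44L was at 0.34 and 0.82, and ISG15, a ubiquitin-like modifier, at 0.11 and 0.41. IFI6 was at -0.35 and 0.17. IFI44 and IFIT3 were dim: IFI44 was above background with siRNA 1 only, and IFIT3 on the other 2 arrays only. IFI44L was above background on all arrays but was dim as well, with 82.9 raw units in the control. No difference between EIF2AK2 and these genes was tested.

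ADAR, the editing enzyme whose long form is interferon-induced, had 3 probes that did not run together. At ILMN_1776777 raw signal was 5736.4 and 4179 with siRNA 1 and siRNA 2, against 3743 in the control. Normalized differences there were 0.16 and 0.19, both above control, with a mean of 0.18 (interval -0.40 to 0.76). At ILMN_2320964 raw signal was 2537.6 and 1858.8, against 1958.7 in the control, and the differences were -0.11 and 0.024 around a mean of -0.043. ILMN_1706963 was not above background on any array, with raw signals of 54.9 and 58.7 in the knockdown, against 52.6 in the control. The gap of 0.22 between the means of the first 2 probes was wider than in 66.4% of genes with several such probes. Which ADAR transcripts each probe detects was not analysed here.

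ADARB1, which edits transcripts of neuronal glutamate receptors, was slightly above control with each siRNA at the 2 probes above background on all arrays. With equal array medians siRNA 2 was at -0.0058 and -0.012 there, beside -0.072 for the median of all tested probes. At ILMN_1679797 raw signal was 1758.5 and 1207.6 with siRNA 1 and siRNA 2, against 1207.2 in the control, and the normalized differences were 0.064 and 0.09. At ILMN_2319326 it was 283.4 and 187.8, against 188.6 in the control, with differences of 0.22 and 0.073. At ILMN_1697628 it was 89 and 78.4, against 74.9 in the control. That probe was above background with siRNA 1 and on neither other array, so no fold is given. The mean differences at the first 2 probes were 0.077 and 0.15, with a gap of 0.071 that was wider than in 24.9% of genes, and limma called neither of them (adjusted p = 0.99991).

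Of the Staufen genes, STAU2, which moves RNA along neuronal dendrites, had 604 and 451.3 raw units with siRNA 1 and siRNA 2, against 533.9 in the control. Its normalized values of 8.79 and 8.93 lay below the control value of 9.10. With equal array medians STAU2 was at 0.032 with siRNA 1, beside 0.29 for the median of all tested probes. Its differences of -0.32 and -0.17 gave the lowest mean of the 8 other genes at their brightest probes. That mean was -0.24 ± 0.25 (SE, n = 2 against 1; interval -0.84 to 0.35), which is smaller than its error. STAU1, which recruits UPF1 to stems downstream of the coding sequence, had 7791.1 and 5470.6 raw units at ILMN_2327276, against 5889.7 in the control. The differences there were -0.033 and -0.068. At ILMN_1656136 the raw signal was 3868.3 and 2250, against 2258.4 in the control, and the differences were 0.32 and 0.095. The bright probes of STAU1 thus lay on opposite sides of control, with a gap of 0.26 that was wider than in 73.5% of genes. Near background, ILMN_1730363 had 87.4 and 82.2 raw units, against 83.9 in the control, and was not above background with siRNA 1.

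DHX9, the RNA helicase A that unwinds structured RNA and limits double strands made by inverted repeats, had 4 probes that split by brightness. At ILMN_1656016 raw signal was 3493 and 1936.3 with siRNA 1 and siRNA 2, against 2345.5 in the control. The differences were 0.11 and -0.17, with a mean of -0.031 (interval -0.65 to 0.59). At ILMN_1690965 raw signal was 912.7 and 808.7, against 822.9 in the control, and the differences were -0.35 and 0.068. The siRNA arrays therefore stood on opposite sides of control at both bright probes, and in opposite order.

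Both dim DHX9 probes had normalized differences below 0 with each siRNA, though most of their knockdown readings were not above background. ILMN_1676285 had 100 and 76.9 raw units with siRNA 1 and siRNA 2, against 99.7 in the control. With siRNA 1 the raw signal thus equalled control, and the difference was -0.40 after normalization and -0.20 with the authors' deposited values. No signal above background was left with siRNA 2, which puts it at least 1.4955-fold lower there in the reported normalization. ILMN_1652155 had 85 and 72.9 raw units, against 91.7 in the control. It was above background in the control only and, in the same normalization, was at least 1.34-fold lower over both siRNAs. Its interval was the 1 of the 16 that did not hold 0, but the probe was tested only through the control array, where it was highest. Neither dim probe was called by limma (adjusted p = 0.99991). Probes this dim varied more over the whole array. Among the 2453 tested probes above background on 1 or 2 arrays, 13.2% were lower by over 1.5-fold with siRNA 2, beside 4.87% of the 17666 above background on all 3. The median size of the mean difference was 0.29 in the first set and 0.14 in the second.

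**Figure D3:**
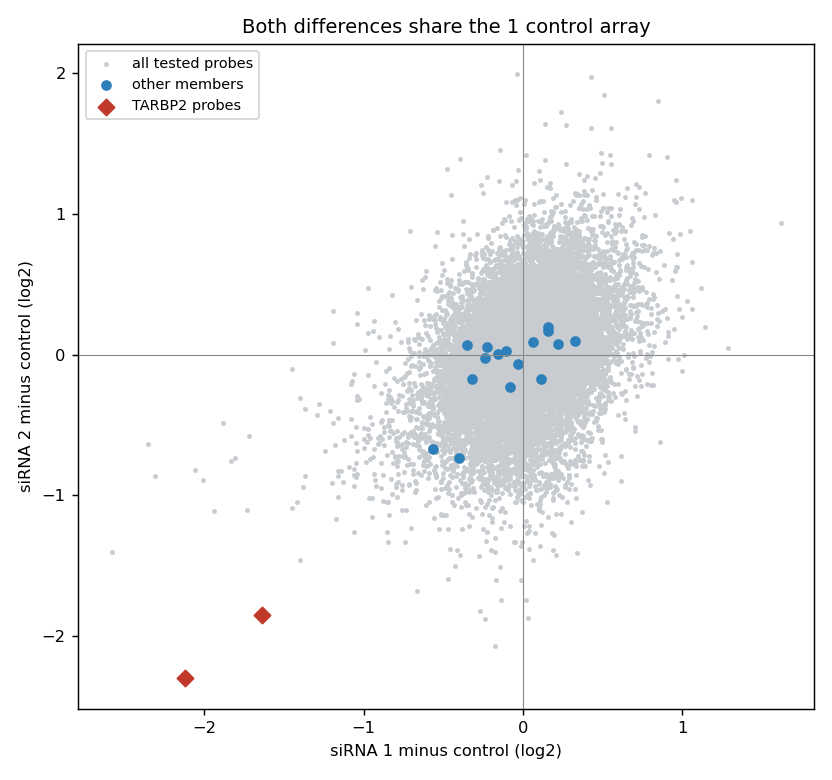
Difference from control (log2) with siRNA 1 (x axis) and siRNA 2 (y axis) for 20119 tested probes in grey, with the 16 probes of the 8 other genes in blue and both TARBP2 probes as red diamonds. The TARBP2 probes lie at the lower left edge (-2.12 and -2.30 at ILMN_1729767), the dim DHX9 probes lie below the cloud's centre, and the rest lie inside it. Both axes share the control array.

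The siRNAs differed little from each other at these genes. Over the 12 probes of the 8 other genes above background on all arrays, siRNA 1 minus siRNA 2 ran from -0.42 (DHX9, ILMN_1690965) to 0.28 (DHX9, ILMN_1656016), with a median size of 0.15. Over all probes above background on every array the median size was 0.21. The authors' deposited table gave values close to control as well, from -0.19 (STAU2) to 0.19 (STAU1, at the entry of ILMN_1656136). It put 0 of the 19 probes in its class of up-regulated accessions, which held 1036 of 39747.

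Likeness to TARBP2 was taken as the distance between the 2 siRNA differences, over 3 arrays and 11767 genes. Of the 5 nearest genes, 3 were above background on all arrays: GOLIM4, a Golgi membrane protein, at 1.11 log2 units from TARBP2, TRIM16L at 1.26 and TRA2A, a splicing regulator, at 1.45. The other 2 have no set place in this order. RNA28SN5, a 28S ribosomal RNA, was not above background with siRNA 1, where it was at least 4.65-fold lower in the reported normalization. USP53 was not above background with either siRNA and, in the same normalization, was at least 1.63-fold lower over both.

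Related genes were read at the brightest probe of each. Other proteins with the domain had a median of 0.076 over 8 tested genes, beside 0.012 over all 11768 tested genes. Both knockdown arrays were above control at 4 of the 8, beside 31.9% of tested genes, and below it at 1, beside 27.2%. STRBP, a spermatid RNA binding protein, had differences of 0.40 and 0.33 with siRNA 1 and siRNA 2. DUS2, a tRNA dihydrouridine synthase, had 0.16 and 0.34, and SON, a splicing cofactor, -0.094 and -0.16. ADARB2, ADAD1 and ADAD2, relatives of the editing enzymes, were not above background on any array.

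The partners in microRNA processing and loading had a median of -0.087 over 9 genes, -0.075 with siRNA 1 and -0.15 with siRNA 2. Both knockdown arrays were below control at 4 of the 9, beside 27.2% of tested genes, and above it at 1, beside 31.9%. With equal array medians they were below it at 2, beside 943 of 11768 tested genes, and above it at 2, beside 4579. The list median was then 0.038, beside 0.12 over all genes. DDX17, a helicase of the DROSHA complex, was at -0.74 with siRNA 1 and -0.15 with siRNA 2, and was the 1 of the 9 lower by over 1.5-fold with siRNA 1, beside 1.36% of tested genes. AGO1, an Argonaute, was at -0.057 and -0.52. AGO4, one of the 4, was not above background with either siRNA and was at least 1.16-fold lower over both in the reported normalization. AGO4 was tested only through the control array, so the filter favoured a lower reading and its direction carries no weight. The list medians include it. None passed the test (limma, 0 of 9).

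Around EIF2AK2, the eIF2 alpha kinase pathway had a median of -0.019 over 9 genes, -0.030 with siRNA 1 and 0.076 with siRNA 2. With equal array medians the pathway median was 0.072, beside 0.12 over all genes. EIF2AK4, the kinase GCN2 that senses uncharged tRNA, was at 0.083 and 0.56. EIF2S1, which encodes the substrate eIF2 alpha itself, was at 0.14 and 0.36, and PPP1R15A, a phosphatase subunit that reverses the mark, was at -0.34 and -0.12. DDIT3, a late target of the pathway, split between the siRNAs at -0.49 and 0.19. None of the 9 was lower or higher by over 1.5-fold with siRNA 1 (1.36% and 1.26% of tested genes) or with siRNA 2 (4.88% and 5.27%).

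Interferon-induced genes, the class to which EIF2AK2 and ADAR belong, had a median of 0.37 over 10 tested genes, 0.17 with siRNA 1 and 0.45 with siRNA 2. Both knockdown arrays were above control at 7 of the 10, beside 31.9% of tested genes, and below it at 1, beside 27.2%. By over 1.5-fold, 3 were higher with siRNA 2 (5.27% of tested genes) and 1 lower (4.88%), and 1 was higher with siRNA 1 (1.26%). The last was IFI44 and the lower one OAS1. Both have only bounds in the reported normalization, of at least 1.21-fold for IFI44 and at least 1.40-fold for OAS1. IFI44 and RIGI, both among the 7, were not above background in the control. Each was tested only through 1 knockdown array, so the filter favoured a higher reading and their direction carries no weight. The list medians include both. The largest mean differences were those of IFI44L (0.58), of OAS1, a synthetase of oligoadenylates (-0.52), and of IFIT2 (0.46). IFIT2 had 135.1 and 110.1 raw units with siRNA 1 and siRNA 2, against 93.6 in the control. IFI44L had 110.1 and 109.2, against 82.9 in the control. OAS1 had 94 and 78, against 96.5 in the control, and was not above background with siRNA 2. These 3 signals lay near background, and none of the 10 passed the test (limma, 0 of 10). The list median was 0.20 without background correction and 0.19 with the authors' deposited values. Of the genes tied to Staufen-mediated decay, UPF1 was at 0.056 and 0.19, ARF1, a known target, was at -0.15 and 0.082, and GAP43 was not above background on any array.

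**Figure D4:**
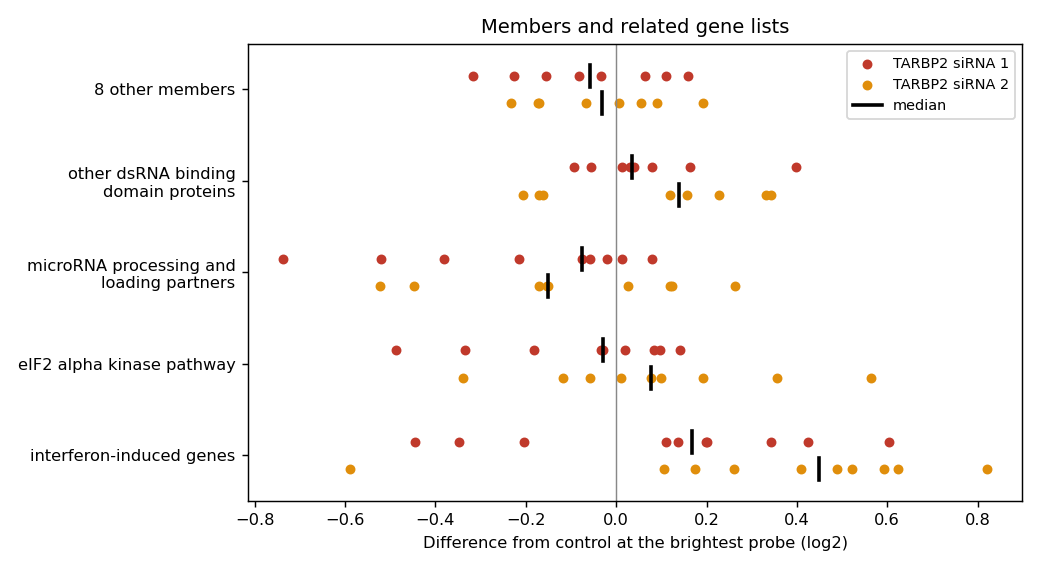
Difference from control (log2, x axis) at the brightest probe of each tested gene, for siRNA 1 and siRNA 2, with the median of each set as a black bar. The 8 other members lie within -0.32 and 0.19, and among the sets plotted the interferon-induced set has the medians farthest from 0 (0.17 and 0.45). These medians include IFI44 and RIGI, each tested only through 1 knockdown array. The microRNA set includes AGO4, tested only through the control array.

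The size of the TARBP2 difference moved with the processing. The mean at ILMN_1729767 was -1.67 with the authors' deposited intensities, -1.71 without background correction and -1.79 with the larger offset, and it had rank 1 from the lowest under each of these and with equal array medians. ILMN_2310253 had ranks from 3 to 7.

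**Figure D5:**
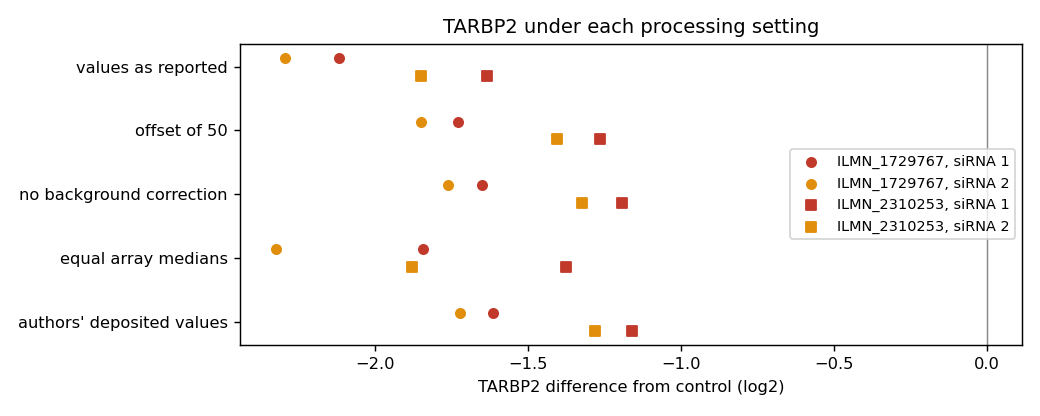
TARBP2 difference from control (log2, x axis) at both probes and with both siRNAs, under the 5 ways of correcting and scaling the signals. Every point lies below 0, and the mean at ILMN_1729767 runs from -2.21 as reported to -1.67 with the authors' deposited values.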

How the data were processed

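Per the file headers, the deposited raw table pairs a mean bead intensity with a detection p-value for every probe on the 3 arrays. A second deposited table holds intensity values on a linear scale that share 1 distribution, as quantile normalization gives. The authors' deposited log fold change table names no log base. It was taken as log2, since over 2374 probes with a deposited intensity of at least 1000 it followed the log2 difference of the deposited intensities with a slope of 0.990. Per the submitters' processing notes lumi was used; its version is not given in the sources used here. The number of arrays limits the precision.

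Signals were corrected and quantile normalized with neqc of limma 3.58.1 (R 4.3.3; background from the detection p-values, offset 16). Small offsets widen differences of dim probes. Of 47323 probes, 30113 had 1 gene symbol, 8 several and 17202 were not listed. Symbols were checked against RefSeq of GRCh38.p14 and 0 needed an update. The arrays name no genome build, so coordinates are those of the promoter windows alone. Knockdown was compared with control by limma (lmFit, eBayes, two-sided, Benjamini-Hochberg over all tested probes, threshold 0.05), a script also tested on simulated data. Each SE is the moderated one. Where a group left a probe undetected throughout, its fold is a bound, taken from the bright group's mean and, on each dim array, whichever is higher of the probe's own value and the dimmest detected value. Each bound holds for the reported normalization only. Members, lists and tests were chosen with earlier results of these data known. Named are all members, up to 3 genes per list with the largest mean difference, and the 5 genes nearest TARBP2. DDIT3, GAP43, the markers, the genes with a motif match and the genes not above background were named outside this rule, after their values were seen.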

Additional observations from a re-analysis of the deposited data

How the results depend on the processing

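Under the reported and 8 alternative settings TARBP2 stayed below control at ILMN_1729767 with each siRNA, with mean differences of -2.21 to -1.67, and 0 of the tested probes passed limma under any of them. Leaving out 1 knockdown array gave -2.30 and -2.12 there, as values with no test. Counts by 1.5-fold moved most. For siRNA 1 the 720 probes became 174 with an offset of 50, 167 without background correction, 149 with the authors' deposited values, 364 with detection on all 3 arrays and 2266 with equal array medians. The higher and lower probes numbered 338 and 382 as reported, 43 and 131 with the offset of 50, 44 and 123 uncorrected, 38 and 111 with the authors' values, 148 and 216 on all 3 arrays, and 2063 and 203 with equal medians. For siRNA 2 the split was 999 and 1183 as reported and 633 and 1485 with equal medians. For siRNA 2 the 2182 became 991, 887 and 806 under the first 3 of these. The larger offset and uncorrected signals shrink differences of dim probes by construction, and the dim DHX9 probes were then no longer past 1.5-fold with siRNA 2.

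Equal array medians put the median of all tested probes at 0.11 for the mean difference and 0.29 for siRNA 1. There 5 means turned positive: PRKRA (0.036), ADAR ILMN_2320964 (0.072), STAU1 ILMN_2327276 (0.070), DHX9 ILMN_1656016 (0.071) and DGCR8 (0.038). STAU1 ILMN_1656136 was then past 1.5-fold with siRNA 1, at 0.63. Relative to the median of all probes, 0 of the 16 turned under this or any other scaling. Values from 1 siRNA alone, siRNA 1 first, lay on both sides of control for PRKRA (-0.15 and 0.0063), ADAR ILMN_2320964 (-0.11 and 0.024), DHX9 ILMN_1656016 (0.11 and -0.17), DHX9 ILMN_1690965 (-0.35 and 0.068) and DGCR8 (-0.23 and 0.056). Their directions thus rest on single arrays. No paired analysis was possible because there was 1 control array and the labels give no pairs.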
